A study of Homo sapiens with 17 samples.

Results

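The mRNAs described here belong to 41 genes of the ATF4 programme and of transfer RNA charging: 17 cytosolic aminoacyl-tRNA synthetases, the tRNA exporter XPOT, 9 enzymes of amino acid and one-carbon synthesis, 4 amino acid transporter subunits, 5 transcription factors and 5 stress effectors. They were taken by symbol from a table of 25548 gene symbols. All 41 were present, and all 41 were among the 12015 genes whose mean level reached 1 FPKM (fragments counted on a gene, divided by its length and by the mapped total of the library) and which were tested. The cells were Jurkat, a human leukaemic T cell line (T-ALL), grown in RPMI-1640 medium that held FBS (10%), L-glutamine (2 mM) and gentamicin. They received 0, 12.5 or 25 µg/ml of ILT3.Fc, a soluble protein in which the outer domains of ILT3 (LILRB4), an inhibitory receptor of myeloid cells, are fused to an antibody Fc, for 6, 12 or 24 h. No Fc control protein is named in the labels, and untreated cells (0 µg/ml) of the same time are the reference for each dose. There were 17 libraries, 2 in each of 8 groups and 1 of untreated cells at 12 h. The labels call the samples duplicated without naming separate cultures, so every p-value here reflects the spread between the libraries of a group, and that spread may be technical only.

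ATF4 is a transcription factor whose own mRNA is translated more efficiently when the initiation factor eIF2 is phosphorylated, as happens when amino acids run short, haem is lacking or unfolded protein fills the endoplasmic reticulum. It pairs with C/EBP and other leucine zipper partners and switches on genes for amino acid uptake and synthesis, for charging tRNAs with amino acids, and for damping or ending the response. Because its control is largely translational, the amount of ATF4 mRNA is a poor guide to the amount of ATF4 protein, and no protein was measured here. Fast-growing leukaemia cells express many of these genes at a high level without any added stress.

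A DNA element of the letters TGATGNAA, the composite site at which ATF4 and C/EBP proteins are known to bind side by side, was searched on both strands in RefSeq promoters of GRCh38.p14 that span 250 bases before to 50 bases after a gene's start. The table matched 34 of the 41 genes, the synthetases through their present symbols (AARS as AARS1 and so on), and held no entry for LARS, VARS, YARS, PSPH, SHMT2, PYCR1 and SLC7A11. The letters occurred in 13 of the 51 promoters of the matched genes (25.5%), 1 promoter in each of 13 genes, and in 3.62% of all 35116 promoters in the table. Of the 14 synthetases matched, 7 held them. The stretches that carry the match are shown as a sequence feature of these genes. The genes were chosen as known ATF4 targets and synthetases, and the element is a known ATF4 site. Its higher share in their promoters is therefore not independent of the choice. Each is 30 bases long and read 5′ to 3′ on the strand on which the element reads forward, with the element in capitals.
AARS (chr16:70289675-70289704): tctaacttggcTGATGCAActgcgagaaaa
CARS (chr11:3057407-3057436): ttcctagaatcTGATGCAAccgccgccccg
GARS (chr7:30594834-30594863): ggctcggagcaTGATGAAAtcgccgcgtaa
IARS (chr9:92293692-92293721): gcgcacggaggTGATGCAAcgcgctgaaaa
MARS (chr12:57488053-57488082): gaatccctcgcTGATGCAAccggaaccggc
NARS (chr18:57621804-57621833): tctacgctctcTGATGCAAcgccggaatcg
TARS (chr5:33440956-33440985): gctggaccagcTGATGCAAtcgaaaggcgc
ASNS (chr7:97872458-97872487): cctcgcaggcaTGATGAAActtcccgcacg
SLC3A2 (chr11:62881719-62881748): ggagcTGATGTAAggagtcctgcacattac
SLC1A5 (chr19:46784893-46784922): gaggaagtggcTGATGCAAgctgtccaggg
ATF3 (chr1:212565205-212565234): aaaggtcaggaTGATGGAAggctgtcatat
CEBPG (chr19:33374060-33374089): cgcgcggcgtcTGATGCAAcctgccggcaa
CHAC1 (chr15:40953251-40953280): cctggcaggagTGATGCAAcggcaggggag
The core TGATGCAA was the commonest form, TGATGAAA stood in ASNS and GARS, TGATGTAA in SLC3A2 and TGATGGAA in ATF3. Counting the first transcribed base as 1, the element began at -187 in AARS, -209 in CHAC1, -191 in ATF3, -97 in SLC1A5, -68 in ASNS, -42 in CEBPG, -33 in GARS and -13 in IARS. It lay across or just after the start in CARS, MARS, TARS, NARS and SLC3A2. A match of letters is a description and not a measurement of binding.

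AARS and CHAC1 are the pair among these 13 genes whose 6 libraries at 24 h all lay above the 6 libraries at 6 h, as described further on, and their 250 bases upstream of the start are given on the gene's strand, with the element in capitals in the reverse orientation.
AARS (chr16:70289507-70289756, minus strand): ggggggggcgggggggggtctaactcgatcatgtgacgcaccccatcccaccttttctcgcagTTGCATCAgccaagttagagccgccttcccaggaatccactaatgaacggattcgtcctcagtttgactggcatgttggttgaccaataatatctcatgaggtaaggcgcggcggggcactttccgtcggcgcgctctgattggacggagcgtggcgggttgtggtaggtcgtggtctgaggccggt
CHAC1 (chr15:40953221-40953470, plus strand): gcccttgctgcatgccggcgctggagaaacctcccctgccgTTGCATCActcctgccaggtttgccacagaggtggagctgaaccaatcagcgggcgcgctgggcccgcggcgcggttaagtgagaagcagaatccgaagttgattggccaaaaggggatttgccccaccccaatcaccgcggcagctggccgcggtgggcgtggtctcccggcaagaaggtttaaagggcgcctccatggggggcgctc
In the comparison of 24 h with 6 h, 4 of the 13 genes with the element and 11 of the 21 matched genes without it were called higher, as were 11.8% of all genes tested. The median difference was 0.076 in the first set and 0.073 in the second, on the log2(FPKM + 1) scale.

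All 17 libraries carried the markers of the line: 12 of 12 T cell leukaemia genes reached 1 FPKM, with CD3D at 547 FPKM and TAL1 at 63.4. Of 16 markers of other cell types, 4 did (CD79A, PECAM1, NKG7 and CD68), and HBB and EPCAM were listed at 0 in every library. The summed level of those 16 was 56.2 to 66.0 FPKM at 6 h, 53.3 to 56.0 at 12 h and 45.9 to 56.7 at 24 h. CD79A and NKG7 were lower at 24 h than at 6 h, and NKG7 and CD68 were higher with 25 µg/ml at 24 h. Of the 12 T cell leukaemia genes, 3 were called higher and 3 lower at 24 h than at 6 h, against 25.2% of all genes. With 25 µg/ml at 24 h CD28 was higher and LMO1 and RAG1 were lower, against 16.5% of all genes. The part of the marker genes in the results was not tested. Relative depth ran from 0.676 to 1 of the deepest library. The first library of 12.5 µg/ml at 6 h and the second of 25 µg/ml at 24 h stood apart, the first by a rank correlation of -0.601 between its deviation from the mean library and transcript length, the second by one of 0.571 with GC content. All 24 h libraries and the first of each pair at 6 h were sequenced in lane 4, the 12 h libraries and the second of each 6 h pair in lane 5.

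Most of the genes were abundant. The median of their mean levels was 73.3 FPKM, against 15.1 FPKM for all genes tested. ATF4 itself was the highest at 387 FPKM (lowest library 364, highest 432), followed by the lysyl-tRNA synthetase KARS at 214.5 and by MTHFD2, the mitochondrial folate dehydrogenase, at 167. The synthetases lay between 32.4 FPKM (CARS, for cysteine) and 214.5, with a median of 87.5. Their levels were steady: the highest library exceeded the lowest by a median factor of 1.17, against 1.32 for all genes tested. In amino acid synthesis, SHMT2 (119), PSAT1 (118) and PHGDH (95) of the serine pathway were high. ASNS, the asparagine synthetase that is a classic ATF4 target, was low at 6.33 FPKM, and CTH, which makes cysteine from cystathionine, stood at 2.93. SLC7A5 (141) and its partner chain SLC3A2 (128), which together import large neutral amino acids, were far above the cystine carrier SLC7A11 (3.03). Several targets known as stress-inducible were near the bottom of the order: CEBPB 6.22, SESN2 3.60, ATF3 3.49, CHAC1 2.97 and STC2 1.51 FPKM. CEBPB varied the most, by a factor of 2.90 from the lowest to the highest library, and CHAC1 followed with 2.1. Neighbours in this order often overlapped, as SHMT2 and PSAT1 did over most of their range.

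**Figure D1:**
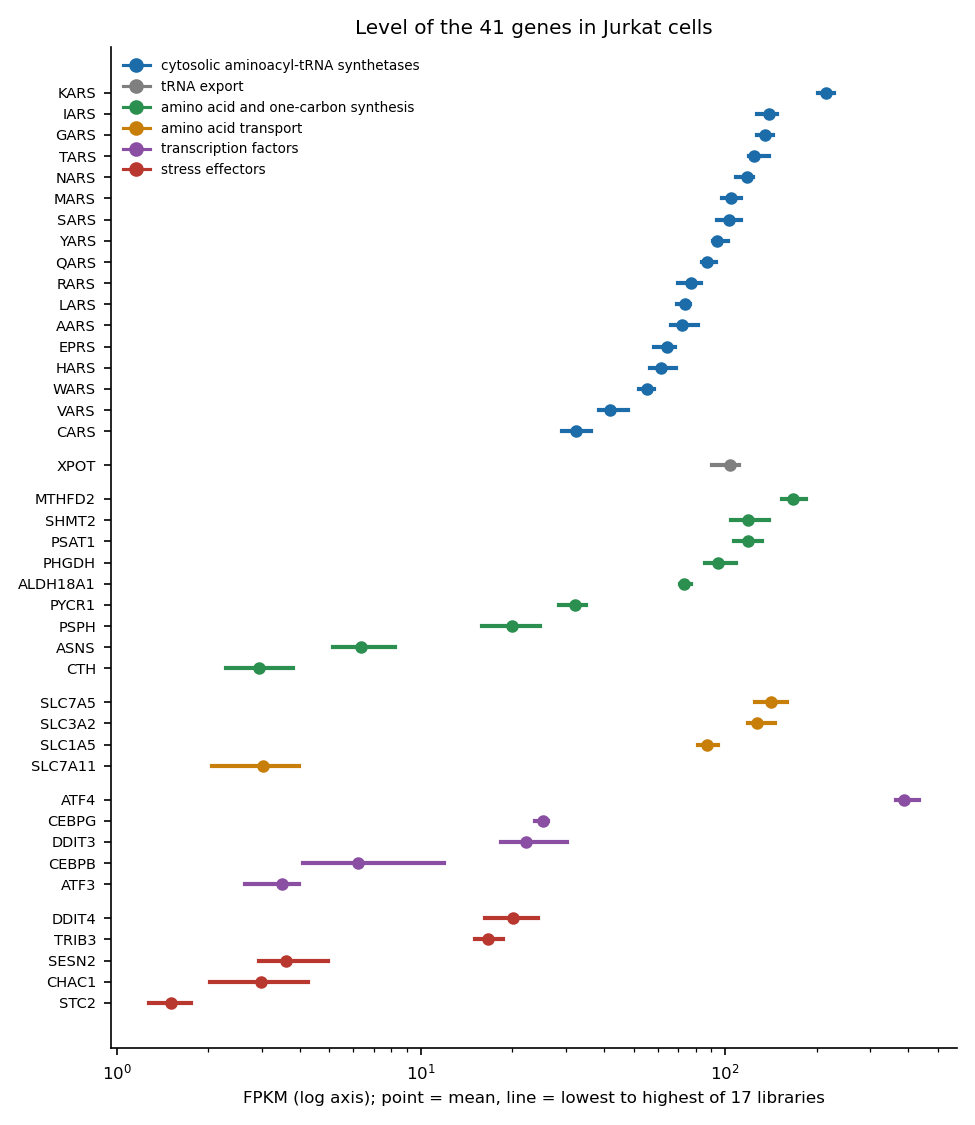
Mean FPKM of each gene (point) with the lowest and highest of 17 libraries (line), on a log axis, coloured by role. ATF4 at 387 FPKM and the synthetases lie to the right, and the stress effectors lie at or below 20.0 FPKM.

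The dose comparison asks what ILT3.Fc did to these mRNAs, as the mean of the differences from untreated cells at the 3 times. With 25 µg/ml, 1 of the 41 genes passed the test (limma on log2(FPKM + 1), adjusted p under 0.05 by Benjamini-Hochberg over 12015 genes): SHMT2 rose by 0.13 (SE 0.028), adjusted p = 0.0151. Among all genes tested 9.47% were called, 5.47% higher and 4% lower, so 1 of 41 (2.44%) is below the background. The median difference of the 41 genes was 0.020, against 0.015 for all genes tested. With 12.5 µg/ml none of the 41 was called (background 0.283%), and none was called between 25 and 12.5 µg/ml (background also 0.283%). At an unadjusted limma p under 0.05 there were 4 genes in the first of these, all higher, against 10.9% of all genes, and 3 in the second, all lower with 25 µg/ml, against 11.9%. For 12.5 µg/ml against untreated cells SHMT2 had the smallest adjusted p, 0.127, at a difference of 0.12. Without either 1 of the 2 libraries of 12.5 µg/ml at 6 h, the comparison of 25 µg/ml with untreated cells called 6 genes of the set, 4 higher and 2 lower, against 16.9% of all genes. Without either 1 of the 2 libraries of 25 µg/ml at 24 h it called 2, against 10.4% and 7.33% of all genes. Without the second library of 12.5 µg/ml at 6 h, 5 were called with 12.5 µg/ml, all higher (7.45% of all genes), and 2 between the doses (12.3% of all genes). With libraries centred on their medians the calls over all times were 2 lower (CARS and PSAT1) and none higher, and the calls among all genes were 393 higher and 765 lower in place of 657 and 481. A change in the share of cells that express a gene and a change within each cell cannot be told apart in bulk RNA.

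At single times, 25 µg/ml gave no called gene among the 41 at 6 h (background 0.225%) or at 12 h (background 0.0499%, with 1 untreated library). The unadjusted limma p was under 0.05 for 4 genes at 6 h and 3 at 12 h, against 10.3% and 8.61% of all genes. At 24 h it gave 5 (12.2%), against 16.5% of all genes. SHMT2, AARS and SESN2 were higher (3 of 41, 7.32%, against 10.7% of all genes), and TARS and CARS were lower (2 of 41, 4.88%, against 5.76%). The median of the 41 at 24 h was 0.0035, against 0.036 for all genes. By role, the calls were 1 higher and 2 lower of 17 synthetases, 1 higher of 9 synthesis enzymes and 1 higher of 5 stress effectors. None of the 4 transporter subunits, none of the 5 transcription factors and not XPOT passed. The count of 5 rested on single libraries. It was 0 without the second untreated library at 24 h, 1 without the second 25 µg/ml library at 24 h, and 14 (8 higher and 6 lower) without either 1 of the 2 libraries of 12.5 µg/ml at 6 h, which are in the fit for its spread alone. In these fits 4.02%, 5.01%, 25.6% and 25.5% of all genes were called. It was 3 without the first untreated library at 24 h, without any 1 of the 25 µg/ml libraries at 6 h, and without any 1 of the treated libraries at 12 h, with 8.81% to 13.7% of all genes called. In 25 µg/ml against untreated cells at all 3 times, SHMT2 and SARS had no overlap and were higher each time (2 genes, background 7.74%), and CARS was lower each time (1 gene, background 5.81%).

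**Figure D2:**
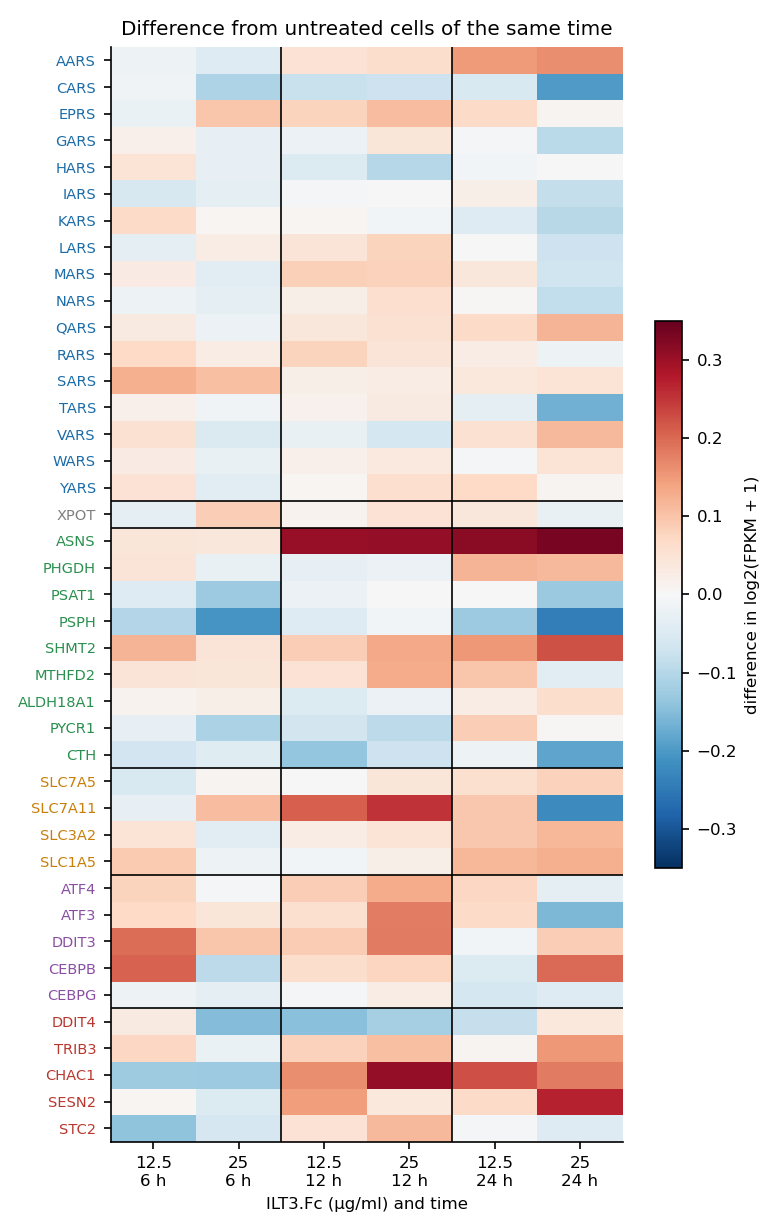
Difference in log2(FPKM + 1) from untreated cells of the same time for each of the 41 genes (rows, coloured and ruled off by role) at 12.5 and 25 µg/ml and 6, 12 and 24 h (columns), red for higher and blue for lower. ASNS is red in all columns from 12 h on, with differences of 0.31, 0.31, 0.32 and 0.33.

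Among the synthesis enzymes, SHMT2, the mitochondrial serine hydroxymethyltransferase that passes a carbon from serine to folate, was the one gene called over all times. SHMT2 measured 111 and 113 FPKM in untreated cells at 6 h, 127 and 117 with 12.5 µg/ml and 118 and 113 with 25 µg/ml. In that order of dose, the values were 105, then 112 and 111, then 114 and 116 at 12 h. They were 119 and 116, then 134 and 127, then 135 and 139 at 24 h. The treated libraries lay above the untreated ones at 12 and 24 h, and at 6 h the second library with 25 µg/ml exceeded the higher untreated one only in its decimals. At 24 h SHMT2 rose by 0.22 (SE 0.045) with 25 µg/ml, a 1.17-fold level, with a limma adjusted p of 0.00871. That call was lost without the second untreated or the second 25 µg/ml library at 24 h, with adjusted p = 0.0774 and 0.0689 and differences of at least 0.20. The all-times call was lost in lane 4 alone (0.16, adjusted p = 0.159), in lane 5 alone (0.066, adjusted p = 0.226) and when the 24 h libraries were left out (0.088, adjusted p = 0.331). It also missed the threshold after median centring (0.11, adjusted p = 0.0558) and when the 12 h libraries were dropped (0.13, adjusted p = 0.0755).

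ASNS, which makes asparagine from aspartate and glutamine, did not pass. Its FPKM in untreated cells was 5.71 and 5.78 at 6 h, 5.17 at 12 h and 5.28 and 5.99 at 24 h. Cells given 12.5 µg/ml held 6.86 and 5.15 of ASNS at 6 h, 6.92 and 6.35 at 12 h and 7.23 and 7.27 at 24 h. For 25 µg/ml these values were 6.11 and 5.75, then 6.91 and 6.39, then 8.23 and 6.52. At 12 and 24 h every treated library lay above every untreated one, and at 6 h they overlapped. The limma difference with 25 µg/ml was 0.23 (SE 0.073) over all times, with adjusted p = 0.0778, and 0.33 (SE 0.12) at 24 h, with adjusted p = 0.0766. ASNS also did not pass in 26 of the 31 alternatives run over all times and in 27 of the 30 at 24 h. Without both libraries that stand apart, a setting chosen after seeing the data, the ASNS differences were 0.28 and 0.48. That fit leaves a single library with 25 µg/ml at 24 h, the higher of the pair at 8.23 FPKM. PSAT1, the aminotransferase of serine synthesis, pointed the other way. Untreated cells held 124 and 125 FPKM of PSAT1 at 6 h, 108 at 12 h and 127 and 132 at 24 h. At 12.5 µg/ml PSAT1 stood at 123 and 118, then 107 and 107, then 127 and 132 at those times. At 25 µg/ml PSAT1 stood at 115 and 113, then 109 and 108, then 123 and 115. The 25 µg/ml values were below the untreated ones at 6 and 24 h and level with them at 12 h. The PSAT1 difference of -0.085 (SE 0.025) over all times missed the threshold (limma adjusted p = 0.0575) and passed it after correction for GC content and length (-0.082, adjusted p = 0.00416). Along the route from 3-phosphoglycerate through serine to folate, the differences had both signs: at 24 h the differences with 25 µg/ml were 0.11 for PHGDH, -0.13 for PSAT1, -0.24 for PSPH, 0.22 for SHMT2 and -0.039 for MTHFD2, with SHMT2 alone passing the test.

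AARS, TARS and CARS differed at 24 h with 25 µg/ml, in both directions. AARS charges tRNA with alanine. For AARS at 6 h, the untreated libraries gave 71.9 and 69.2 FPKM, those with 12.5 µg/ml 69.7 and 69.5 and those with 25 µg/ml 69.3 and 67.3. The AARS values at 12 h were 66.6 at 0, 68.2 and 69.8 at 12.5 and 70.6 and 68.6 at 25 µg/ml. The AARS values at 24 h were 72.8 and 72.1 at 0, 80.8 and 80.2 at 12.5 and 81.2 and 81.2 at 25 µg/ml. At 24 h all 4 treated libraries, at either dose, stood above both untreated ones, and at 6 h the 3 doses overlapped. The difference at 24 h was 0.16 (SE 0.033), a 1.12-fold level, with a limma adjusted p of 0.00872. The call was lost without the second untreated library at 24 h (adjusted p = 0.0696) and after the GC and length correction (0.084, adjusted p = 0.114).

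TARS charges tRNA with threonine. Without ILT3.Fc, TARS was at 119 and 123 FPKM at 6 h, 120.3 at 12 h and 133 and 139.6 at 24 h. The lower dose gave 125 and 119.9 FPKM of TARS at 6 h, 123 and 120.4 at 12 h and 131 and 135 at 24 h. The higher dose gave 119.9 and 120.2 of TARS at 6 h, 124 and 122 at 12 h and 122 and 119.9 at 24 h. At 24 h the untreated and 12.5 µg/ml libraries lay above all others, and the 25 µg/ml libraries lay within the range of the 6 h values. TARS was lower with 25 µg/ml at 24 h by a log2 difference of -0.17 (SE 0.037), with a limma adjusted p of 0.0134, and higher at 24 h than at 6 h in untreated cells by 0.17 (SE 0.037), with adjusted p = 0.0444. These 2 differences share the untreated 24 h libraries. The first was lost without the second untreated library (adjusted p = 0.124) or the second 25 µg/ml library (adjusted p = 0.0878) at 24 h. CARS charges tRNA with cysteine and was the synthetase of lowest level. CARS measured 33.6 and 35.4 FPKM in untreated cells at 6 h, 36.3 and 32.2 with 12.5 µg/ml and 33.4 and 30.6 with 25 µg/ml. In that order of dose, the values were 31.5, then 29.8 and 29.7, then 29.1 and 30.7 at 12 h. They were 35.6 and 34.7, then 34.7 and 32.9, then 29.8 and 31.2 at 24 h. The CARS libraries with 25 µg/ml lay below the untreated ones at each time. Its difference at 24 h, -0.20 (SE 0.061) with a limma adjusted p of 0.0484, was lost without any 1 of 14 of the 17 libraries, the highest adjusted p being 0.17 without the first untreated library at 24 h. The other 14 synthetases differed by -0.097 (KARS) to 0.12 (QARS) in that comparison and did not pass.

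Of the stress effectors, SESN2, the sestrin that restrains mTORC1 when leucine is short, was called with 25 µg/ml at 24 h. Its FPKM in untreated cells was 3.0 and 3.42 at 6 h, 3.29 at 12 h and 3.94 and 3.48 at 24 h. Cells given 12.5 µg/ml held 3.24 and 3.20 of SESN2 at 6 h, 3.64 and 3.87 at 12 h and 4.12 and 3.73 at 24 h. For 25 µg/ml these values were 3.22 and 2.93, then 3.40 and 3.39, then 4.41 and 4.95. The 24 h libraries with 25 µg/ml were the highest of all 17 for SESN2, above both untreated and both 12.5 µg/ml libraries. The difference was 0.27 (SE 0.080), a 1.26-fold level, with a limma adjusted p of 0.0425. It was lost without any 1 of 9 libraries, among them the second 25 µg/ml library at 24 h (0.20, adjusted p = 0.255), and after the GC and length correction (0.13, adjusted p = 0.198). TRIB3, a pseudokinase that feeds back on ATF4, just missed the threshold. Untreated cells held 15.8 and 16.7 FPKM of TRIB3 at 6 h, 15.1 at 12 h and 17 and 16.0 at 24 h. At 12.5 µg/ml TRIB3 stood at 17.7 and 16.6, then 16.4 and 15.7, then 16.5 and 16.7 at those times. At 25 µg/ml TRIB3 stood at 16.3 and 15.7, then 16.2 and 16.5, then 18.3 and 18.5. The 24 h values with 25 µg/ml were the highest of all libraries for TRIB3. Its difference was 0.15 (SE 0.048) with a limma adjusted p of 0.0501, and 0.0069 after the GC and length correction (adjusted p = 0.93). CHAC1, which degrades glutathione, differed by 0.18 (SE 0.13) at 24 h and did not pass (adjusted p = 0.377).

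No transcription factor of the set passed in any dose comparison. For ATF4 at 6 h, the untreated libraries gave 378 and 378 FPKM, those with 12.5 µg/ml 432 and 369 and those with 25 µg/ml 381 and 373. The ATF4 values at 12 h were 364 at 0, 379 and 394 at 12.5 and 395 and 403 at 25 µg/ml. The ATF4 values at 24 h were 393 and 374 at 0, 406 and 401 at 12.5 and 380.2 and 369 at 25 µg/ml. With 25 µg/ml ATF4 overlapped the untreated values at 6 and 24 h and lay above the single untreated library at 12 h. The highest ATF4 value came from the first library of 12.5 µg/ml at 6 h, one of the 2 that stand apart. Over all times the ATF4 difference with 25 µg/ml was 0.031, with a 95% interval of -0.054 to 0.12 and a limma adjusted p of 0.675. At 24 h it was -0.035, and -0.14 after the GC and length correction, where it passed (adjusted p = 0.0323). After quantile normalization it passed in the other direction over all times (0.061, adjusted p = 0.0444) and from 6 to 24 h (0.053, adjusted p = 0.0271). DDIT3, which encodes the stress factor CHOP, differed by 0.12 (SE 0.081) over all times, with adjusted p = 0.38. Without ILT3.Fc, DDIT3 was at 23.2 and 21.6 FPKM at 6 h, 19.9 at 12 h and 19.8 and 20.0 at 24 h. The lower dose gave 30.2 and 22.0 FPKM of DDIT3 at 6 h, 19.1 and 23.6 at 12 h and 21.3 and 18.3 at 24 h. The higher dose gave 25.2 and 22.9 of DDIT3 at 6 h, 22.9 and 22.7 at 12 h and 20.7 and 21.7 at 24 h. The highest DDIT3 value again came from the first library of 12.5 µg/ml at 6 h.

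The 24 h dose differences moved with the GC content of the transcripts. Of the 21 genes at or above the set's median GC content of 51.5%, 17 had a difference above 0 with 25 µg/ml, with a median of 0.11. Of the 20 below it, 5 did, with a median of -0.078. SHMT2 (57.0% GC), SESN2 (59.5%) and AARS (53.5%) are on the first side, and TARS (43.6%) is on the second. CARS (51.9%), the fifth gene called, is on the first side and was lower. The second library of 25 µg/ml at 24 h is the one whose deviations correlated with GC content at 0.571, and the second untreated library at 24 h is at the other end, -0.376. After each library was corrected for GC content and length, an alternative chosen after seeing the data, the medians of the 2 sides were -0.015 and -0.073. At 24 h the same correction called 19.3% of the genes with a GC content and length (891 higher and 1082 lower) and 9 of the 41, 1 higher (SHMT2, 0.10) and 8 lower (CARS, GARS, IARS, MARS, TARS, PSAT1, PSPH and ATF4), of which SHMT2, TARS and CARS were also called without it. With libraries centred on their medians the 24 h calls among the 41 were 2 higher and 5 lower, and among all genes 758 higher and 984 lower in place of 1286 and 692. Under the same GC and length correction 8 genes changed from above to below 0 (HARS, VARS, WARS, YARS, PYCR1, SLC7A5, SLC1A5 and DDIT4) and 1 from below to above (RARS), none of them called, so that 15 of the 41 lay above 0 in place of 22. What sets GC-rich and GC-poor transcripts apart in these libraries was not tested.

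**Figure D3:**
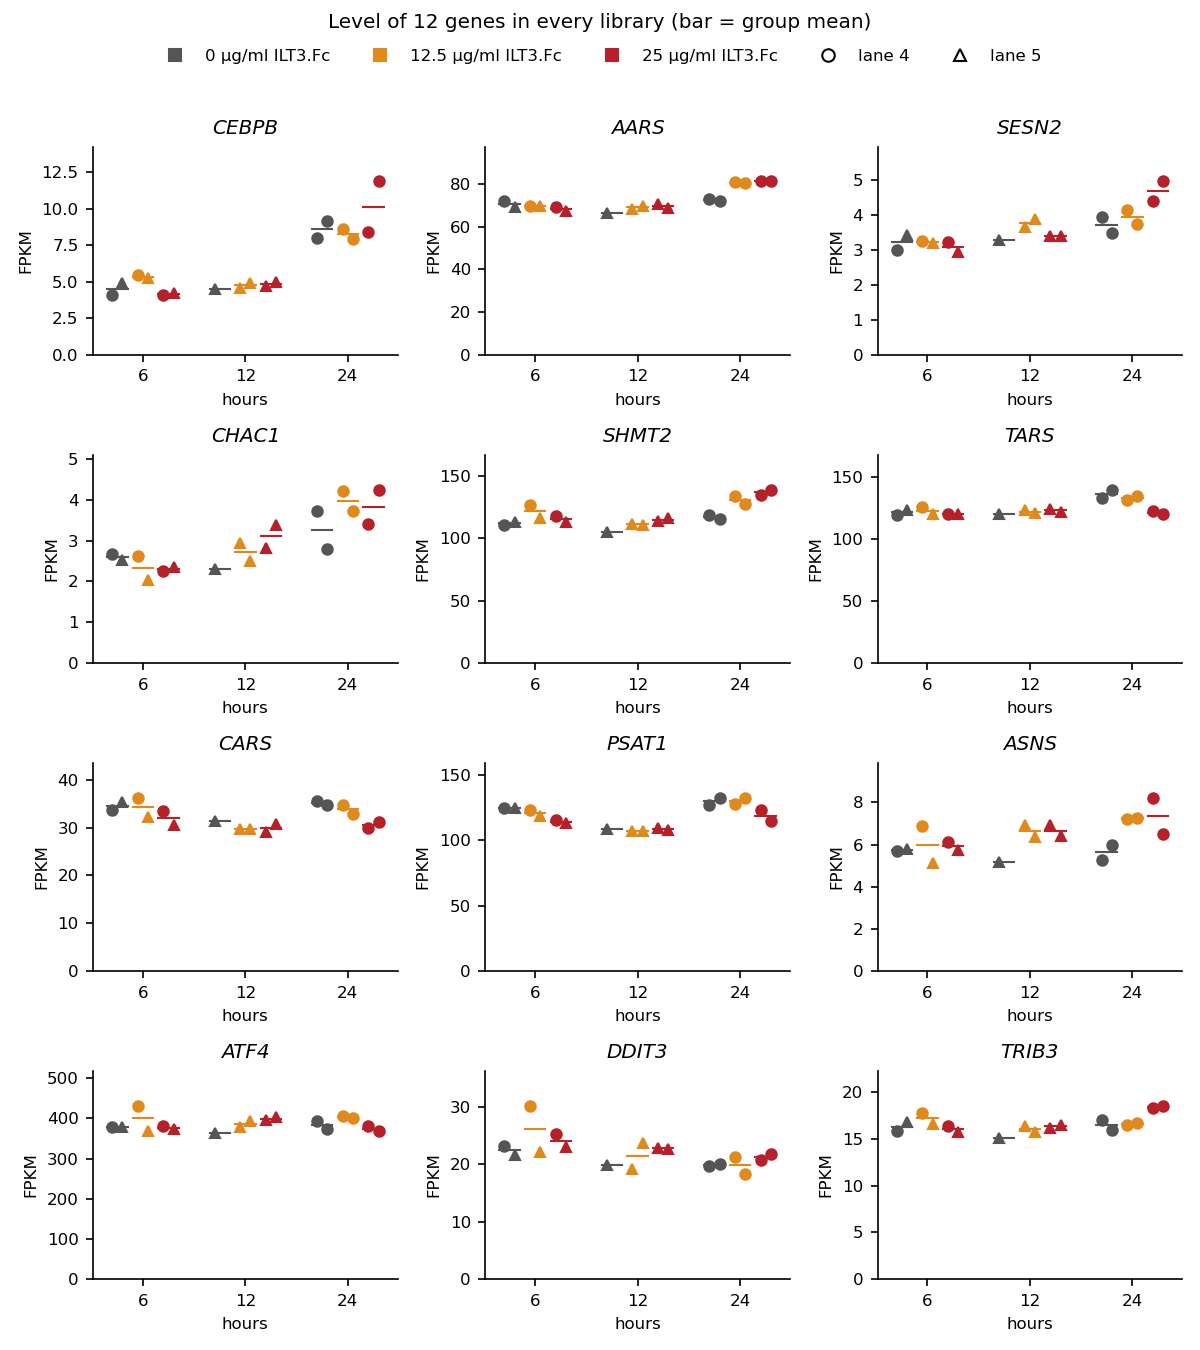
FPKM of 12 of the genes in every library, by time, dose (colour) and sequencing lane (circle, lane 4; triangle, lane 5), with a bar at each group mean and axes from 0. CEBPB at 24 h lies above all earlier libraries at every dose, AARS at 24 h is higher with either dose than without, and ATF4 lies between 364 and 432 FPKM throughout.

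The time comparison sets the 6 libraries at 24 h against the 6 at 6 h, averaged over the 3 doses. Here 19 of the 41 genes passed (46.3%), against 25.2% of all genes tested. The calls were mostly in 1 direction: 18 were higher at 24 h (43.9%, against 11.8% of all genes) and 1, DDIT3, was lower (2.44%, against 13.4%). The median difference was 0.073, against -0.00088 for all genes, and 34 of the 41 lay above 0. The calls comprised 6 of 17 synthetases, XPOT, 5 of 9 synthesis enzymes, 2 of 4 transporter subunits, 3 of 5 stress effectors, and CEBPB and DDIT3 of the 5 transcription factors. Most differences were small, under 0.3 on the log2 scale, with CEBPB (0.81) and CHAC1 (0.45) the exceptions. AARS, CEBPB, CHAC1 and SESN2 had all 6 libraries at 24 h above all 6 at 6 h (4 genes, background 3.37%), and no gene of the set had all 6 below (background 4.13%).

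Time and lane are partly the same in this design, since all 24 h libraries ran in lane 4. Within lane 4, which holds 3 libraries at 6 h, 6 of the 41 genes passed (background 13.5%): AARS, IARS, SLC7A11, CEBPB and SESN2 higher and DDIT3 lower. The share of the 41 that passed was close to that background, unlike the share over both lanes. The median difference within lane 4 was 0.058, and 32 of the 41 lay above 0. With lane as a covariate 14 of the 41 passed, against 19.3% of all genes tested. All 14 were among the 19. Leaving out each library in turn kept 12 of the 19 calls every time and gave 13 to 23 calls in all. The 7 that were lost at least once were EPRS (without 3 of the libraries), SLC7A11 (5), SLC7A5 (6), PSAT1 (11), DDIT3 (12), WARS (13) and ALDH18A1 (14), none with an adjusted p above 0.13.

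**Figure D4:**
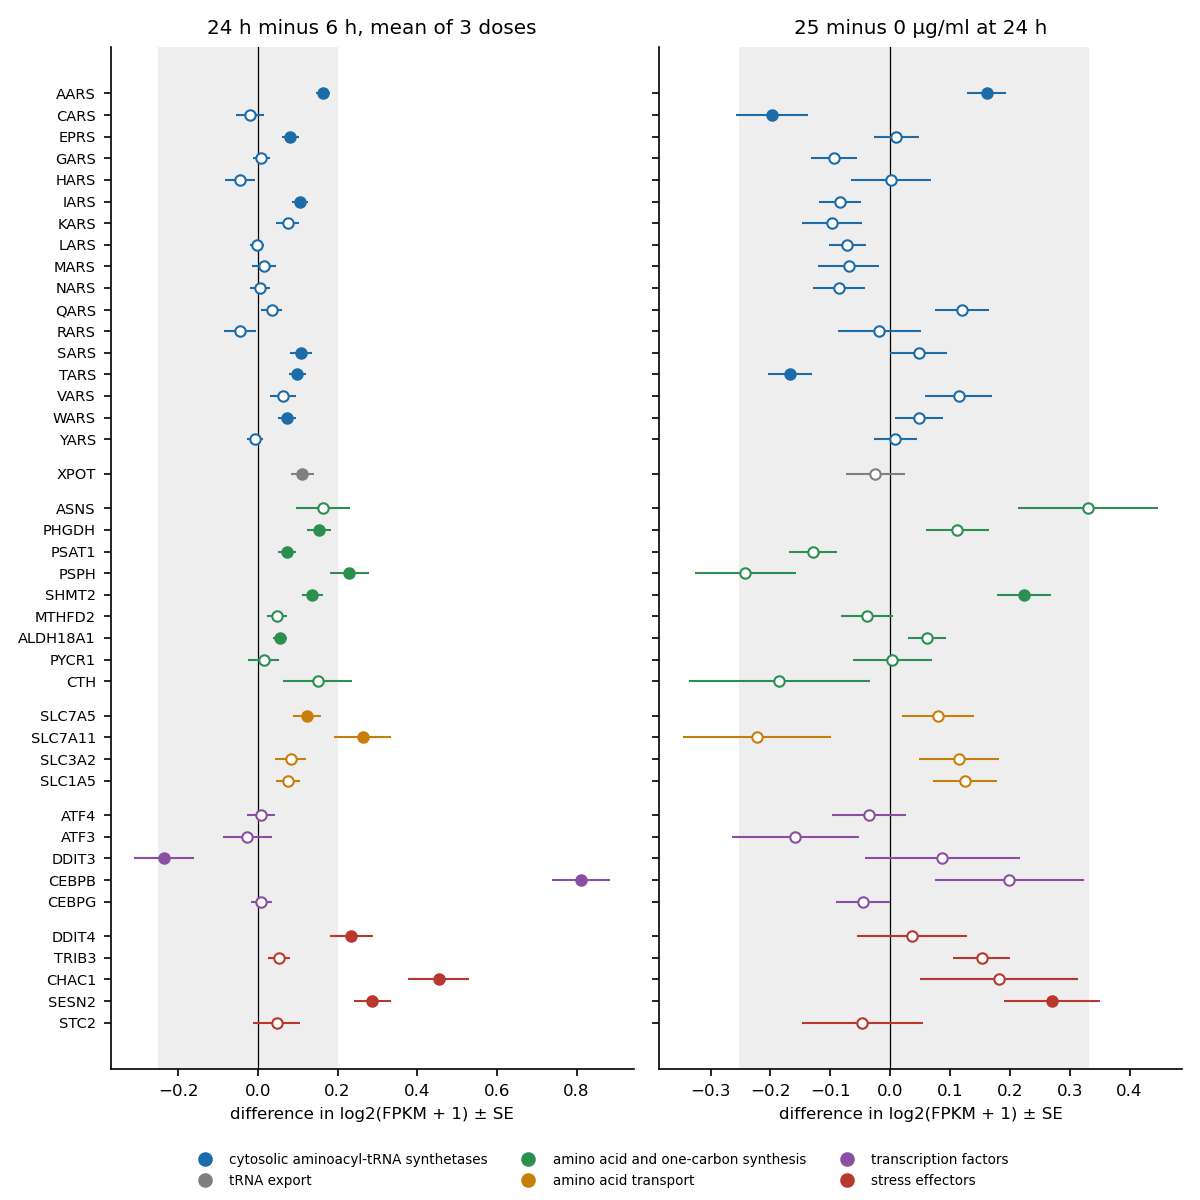
Differences in log2(FPKM + 1) with their SE for the 41 genes, 24 h minus 6 h on the left and 25 minus 0 µg/ml at 24 h on the right. Filled points passed limma at an adjusted p under 0.05, and the grey band spans the 5th to the 95th percentile of all genes tested. On the left 34 of 41 points lie right of 0, on the right 22 do.

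Among the synthetases, AARS differed the most with time, by 0.16 (SE 0.019), a 1.12-fold level, with a limma adjusted p of 2.21e-04. IARS, for isoleucine, had the next smallest adjusted p. IARS measured 135 and 136 FPKM in untreated cells at 6 h, 127 and 134 with 12.5 µg/ml and 134 and 132 with 25 µg/ml. In that order of dose, the values were 141, then 140.5 and 139.5, then 139 and 142 at 12 h. They were 144 and 146.5, then 148 and 147, then 139.6 and 134 at 24 h. Every 24 h library but the second with 25 µg/ml lay above the highest 6 h value of IARS. The difference was 0.10 (SE 0.020) with a limma adjusted p of 0.00408. SARS, for serine, was also called. Its FPKM in untreated cells was 96.8 and 93.9 at 6 h, 97.4 at 12 h and 109 and 104 at 24 h. Cells given 12.5 µg/ml held 109 and 99.4 of SARS at 6 h, 98.6 and 98.9 at 12 h and 113 and 105 at 24 h. For 25 µg/ml these values were 104 and 101, then 98.4 and 99.7, then 109 and 111. The SARS values at 24 h reached above most but not all of the 6 h values, and the difference was 0.11 (SE 0.027) with a limma adjusted p of 0.0151. SARS in lane 4 alone gave 0.073 with adjusted p = 0.181.

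TARS rose by 0.099 (SE 0.021) over the mean of doses, with a limma adjusted p of 0.00746. EPRS, the joint glutamyl- and prolyl-tRNA synthetase, and WARS, for tryptophan, were the other calls. Untreated cells held 60.8 and 61.7 FPKM of EPRS at 6 h, 61.6 at 12 h and 64.7 and 65.0 at 24 h. At 12.5 µg/ml EPRS stood at 58.3 and 62.2, then 64.3 and 65.9, then 68.6 and 67.3 at those times. At 25 µg/ml EPRS stood at 66.0 and 65.3, then 66.6 and 66.4, then 66.8 and 63.8. EPRS at 6 h was highest with 25 µg/ml, at values inside the 24 h range. For WARS at 6 h, the untreated libraries gave 52.8 and 54.8 FPKM, those with 12.5 µg/ml 56.9 and 53.0 and those with 25 µg/ml 53.8 and 51.9. The WARS values at 12 h were 55.2 at 0, 55.0 and 56.8 at 12.5 and 57.0 and 56.1 at 25 µg/ml. The WARS values at 24 h were 56.8 and 55.4 at 0, 55.8 and 56.0 at 12.5 and 58.4 and 57.7 at 25 µg/ml. The 6 h and 24 h ranges of WARS overlapped. With time EPRS differed by 0.081 (SE 0.022) and WARS by 0.073 (SE 0.023), with limma adjusted p-values of 0.0194 and 0.0398. The 11 other synthetases differed by -0.045 (HARS) to 0.075 (KARS) and did not pass. HARS has a close mitochondrial paralogue, HARS2, and reads may be shared between them. XPOT carries tRNAs out of the nucleus. Without ILT3.Fc, XPOT was at 97.9 and 96.4 FPKM at 6 h, 105 at 12 h and 104 and 108 at 24 h. The lower dose gave 90.4 and 99.7 FPKM of XPOT at 6 h, 106 and 105 at 12 h and 107 and 111 at 24 h. The higher dose gave 103 and 104 of XPOT at 6 h, 109 and 107 at 12 h and 108 and 100.3 at 24 h. XPOT at 12 h was already above every 6 h library. Its difference at 24 h was 0.11 (SE 0.028) with a limma adjusted p of 0.0158.

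All 9 synthesis enzymes lay above 0 with time, and 5 passed. PHGDH, which opens serine synthesis, had its lowest values at 12 h. PHGDH measured 92.8 and 92.3 FPKM in untreated cells at 6 h, 102 and 89.9 with 12.5 µg/ml and 93.2 and 88.6 with 25 µg/ml. In that order of dose, the values were 88.2, then 86.8 and 86.2, then 86.1 and 87.9 at 12 h. They were 101 and 95.5, then 108 and 105, then 105 and 107 at 24 h. Only the first 12.5 µg/ml library at 6 h reached the range of the 24 h values of PHGDH. The difference was 0.15 (SE 0.030) with a limma adjusted p of 0.00458. PSPH, the phosphatase that completes serine, differed by 0.23 (SE 0.048), a 1.18-fold level (adjusted p = 0.00636). Its FPKM in untreated cells was 19.5 and 19.8 at 6 h, 20.3 at 12 h and 22.5 and 24.7 at 24 h. Cells given 12.5 µg/ml held 19.5 and 17.1 of PSPH at 6 h, 20.7 and 18.7 at 12 h and 21.1 and 21.8 at 24 h. For 25 µg/ml these values were 17.9 and 15.9, then 19.3 and 21.1, then 18.7 and 20.9. PSPH was highest in untreated cells at 24 h, and the 25 µg/ml values at that time overlapped the 6 h values. PSPH has a pseudogene copy, and how the deposited values share reads between them is not known. SHMT2 rose by 0.14 (SE 0.026) with a limma adjusted p of 0.00367. PSAT1 (0.073) and ALDH18A1 (0.055), which starts proline synthesis, were the calls of highest adjusted p among them (limma adjusted p = 0.0395 and 0.0495). ASNS differed by 0.16 and missed the threshold at an adjusted p of 0.10. MTHFD2, PYCR1, the last enzyme of proline synthesis, and CTH did not pass either.

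Of the transporters, SLC7A11, which takes up cystine in exchange for glutamate, was higher at 24 h. Untreated cells held 2.81 and 2.40 FPKM of SLC7A11 at 6 h, 2.47 at 12 h and 3.39 and 3.68 at 24 h. At 12.5 µg/ml SLC7A11 stood at 2.05 and 3.09, then 3.13 and 2.89, then 3.70 and 3.99 at those times. At 25 µg/ml SLC7A11 stood at 2.73 and 3.05, then 3.34 and 2.94, then 3.07 and 2.72. The highest SLC7A11 values were in the untreated and 12.5 µg/ml libraries at 24 h, and the 25 µg/ml libraries of that time lay within the 6 h range. The difference was 0.26 (SE 0.072), a 1.27-fold level, with a limma adjusted p of 0.0209. The difference in its dose effect between 24 h and 6 h was -0.33 (SE 0.18) and did not pass (adjusted p = 0.301). SLC7A5 rose by 0.12 (SE 0.034) with a limma adjusted p of 0.0233. Its partner SLC3A2 (0.082) and the glutamine carrier SLC1A5 (0.076) did not pass.

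CEBPB, a C/EBP factor that can pair with ATF4, showed the widest change of the set. For CEBPB at 6 h, the untreated libraries gave 4.12 and 4.92 FPKM, those with 12.5 µg/ml 5.45 and 5.25 and those with 25 µg/ml 4.09 and 4.25. The CEBPB values at 12 h were 4.53 at 0, 4.59 and 4.95 at 12.5 and 4.70 and 4.96 at 25 µg/ml. The CEBPB values at 24 h were 8.03 and 9.16 at 0, 8.61 and 7.94 at 12.5 and 8.40 and 11.9 at 25 µg/ml. Every 24 h library exceeded every library at 6 and 12 h, and the highest value, 11.9 FPKM, came from the second 25 µg/ml library at 24 h, one of the 2 that stand apart. The CEBPB level at 24 h was 1.92 times that at 6 h. The log2 difference was 0.81 (SE 0.072) with a limma adjusted p of 7.05e-05, and 0.74 without both libraries that stand apart (adjusted p = 1.10e-04). Untreated cells gave 0.80 (SE 0.13) for CEBPB over the same times. DDIT3 went the other way, by -0.24 (SE 0.075) with a limma adjusted p of 0.041, and its call was lost without the first library of 12.5 µg/ml at 6 h (-0.16, adjusted p = 0.061). ATF4 (0.0081, 95% interval -0.070 to 0.086), ATF3 (-0.026) and CEBPG (0.0079) did not pass.

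CHAC1, SESN2 and DDIT4 were the stress effectors called with time. Without ILT3.Fc, CHAC1 was at 2.68 and 2.53 FPKM at 6 h, 2.31 at 12 h and 3.73 and 2.81 at 24 h. The lower dose gave 2.61 and 2.02 FPKM of CHAC1 at 6 h, 2.93 and 2.49 at 12 h and 4.21 and 3.73 at 24 h. The higher dose gave 2.24 and 2.36 of CHAC1 at 6 h, 2.81 and 3.39 at 12 h and 3.41 and 4.25 at 24 h. The lowest CHAC1 value at 24 h was above the highest at 6 h, by a margin smaller than the spread at 24 h. The difference was 0.45 (SE 0.076), a 1.53-fold level, with a limma adjusted p of 0.00204. SESN2 rose by 0.29 (SE 0.046), a 1.29-fold level, with a limma adjusted p of 0.0016. DDIT4, which also restrains mTORC1, rose by 0.23 (SE 0.053) with a limma adjusted p of 0.0092. DDIT4 measured 20.0 and 18.2 FPKM in untreated cells at 6 h, 21.1 and 18.0 with 12.5 µg/ml and 17.9 and 16.2 with 25 µg/ml. In that order of dose, the values were 20.9, then 18.1 and 19.6, then 19.2 and 19.3 at 12 h. They were 24.2 and 20.3, then 21.3 and 20.6, then 22.0 and 23.6 at 24 h. DDIT4 values at 6 and 24 h overlapped, and the difference was 0.15 in lane 4 alone (adjusted p = 0.155). TRIB3 (0.054) and STC2 (0.047), a secreted glycoprotein, did not pass. At such low FPKM the log2(FPKM + 1) scale understates a change. For that reason ratios with time are given beside it for the low genes called, CEBPB, CHAC1, SESN2 and SLC7A11.

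Against 6 h, 1 gene passed at 12 h (2.44%, against 3.03% of all genes): PSAT1, lower by a log2 difference of -0.15 (SE 0.025) with a limma adjusted p of 0.0153. All 5 PSAT1 libraries at 12 h lay between 107 and 109 FPKM, below the lowest at 6 h (113). The 12 h libraries all ran in lane 5, and within that lane the difference was -0.13 with adjusted p = 0.133. The call was also lost without the second library of 12.5 µg/ml at 12 h (adjusted p = 0.051). Without the second library of 12.5 µg/ml at 6 h, 11 genes were called at 12 h, 3 higher and 8 lower, against 20.1% of all genes. The median of the 41 genes at 12 h was 0.0018.

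In untreated cells alone, 24 h against 6 h called 2 genes of the set (4.88%, against 2.33% of all genes), CEBPB and TARS, both higher. The median of the 41 was 0.038 and 33 lay above 0. The CEBPB difference had a limma adjusted p of 0.012 and that of TARS 0.0444. CEBPB lost its call without any 1 of the 4 untreated libraries at 6 and 24 h, with adjusted p up to 0.107, and TARS lost its call without any 1 of 12 libraries, with adjusted p up to 0.259. Without either 1 of the 2 libraries of 12.5 µg/ml at 6 h, 5 genes of the set were called in untreated cells, all higher, against 6.63% and 6.62% of all genes. Whether the effect of 25 µg/ml differed between 24 h and 6 h was tested as an interaction, in which 1 gene passed (2.44%, against 3.3% of all genes). That gene was AARS, whose effect was -0.045 at 6 h and 0.16 at 24 h, a difference of 0.21 (SE 0.046) with a limma adjusted p of 0.0391. It was lost without any 1 of 13 libraries, with adjusted p up to 0.151, after median centring, quantile normalization and the GC and length correction. The count was 3 without the first library of 25 µg/ml at 24 h (7.03% of all genes) and 2 without either 1 of the 2 libraries of 12.5 µg/ml at 6 h (9.67% and 9.66% of all genes). The median of the 41 genes in that test was -0.0014.

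Related genes outside the 41 were described from lists chosen on knowledge of the pathway. Their calls stand beside the same background: 25.2% of all genes with time, 16.5% with 25 µg/ml at 24 h and 9.47% with 25 µg/ml over all times. Of 24 other genes known as ATF4 targets, 16 were tested, and 7 were higher and 1 lower at 24 h than at 6 h. GPT2, a glutamate-pyruvate transaminase, had the smallest adjusted p, at a difference of 0.28 (limma adjusted p = 0.00143). VLDLR (0.22) and the mitochondrial protease LONP1 (0.15) came next by adjusted p, and CBS, of cysteine synthesis, was lower (-0.21). GPT2 was also the single one of the 16 called with 25 µg/ml over all times (0.20, limma adjusted p = 0.0258). Of 15 tested genes for the eIF2 kinases, eIF2, eIF2B and the phosphatase subunits, 4 were higher and 2 lower at 24 h. EIF2AK4, which encodes the uncharged-tRNA sensor GCN2, rose by 0.26 (limma adjusted p = 9.34e-05), EIF2AK1, the haem-regulated kinase, rose by 0.16, and PPP1R15A, which directs the phosphatase to eIF2, was lower at a difference of -0.30. With 25 µg/ml over all times the same list gave 1 higher (EIF2AK1, 0.078) and 1 lower (EIF2B3, -0.11).

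Of 12 genes of the ATF6 and IRE1 arms of the unfolded protein response, 3 were higher and 3 lower at 24 h than at 6 h. HSPA5, the main chaperone of the endoplasmic reticulum, was lower at a difference of -0.45 (limma adjusted p = 1.77e-05), and HSP90B1 at -0.18, while EDEM1 rose by 0.24. With 25 µg/ml HSP90B1 was lower over all times (-0.19) and at 24 h (-0.24), and PDIA4 was higher at 24 h (0.17). PDIA4 also passed the interaction (0.33), which called 3.3% of all genes. Of 17 mitochondrial aminoacyl-tRNA synthetases, which serve the organelle's own ribosomes, 3 were higher and 3 lower with time, and 5 were higher and 3 lower with 25 µg/ml at 24 h. HARS2 differed by 0.39 and CARS2 by -0.36 in that dose comparison (limma adjusted p = 2.91e-04 and 0.0013), larger than any cytosolic synthetase there. Of 6 further subunits and scaffolds of cytosolic synthetases, 1 was lower with time (FARSB, -0.089) and 1 was lower with 25 µg/ml over all times (FARSA, -0.11).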

How the data were processed

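RNA of 17 Jurkat libraries was extracted with RNeasy Mini and sequenced after TruSeq poly-A preparation, per the labels' protocols. Reads were aligned with TopHat2 2.1.0, per the submitters' processing notes; what made the FPKM values, and on which build and gene models, is not given in the sources used here. The authors deposited FPKM per gene symbol, and of 25593 lines the 45 that repeated a symbol at a lower mean were dropped, leaving 25548. Relative depth was estimated from the FPKM steps of 6620 low genes.

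The 12015 genes averaging 1 FPKM or more were tested on log2(FPKM + 1), pseudocount 1, with limma 3.58.1 in R 4.3.3: 9 dose and time group means, variance trend, 10 two-sided comparisons, Benjamini-Hochberg adjustment over all genes tested, and calls at an adjusted p under 0.05. The single untreated library at 12 h was assumed to vary like the other groups. Transcript GC content and length, from GENCODE v29, covered 85% of tested genes and all 41 described here. The analysis was tested on simulated data with 200 changed genes and independent noise for each gene. Of differences of 0.25 it recovered 73.7% for 24 h against 6 h and 20.5% for 25 µg/ml at 24 h. Of differences of 0.5 it recovered 94.8% and 80.1%. Between 4.11% and 5.75% of the calls were false. The dose comparison at 24 h thus missed most changes of 0.25 in the simulation, and its counts are not alike in power to those with time. The 200 genes changed are fewer than the 1978 called with dose at 24 h and the 3027 with time. The shares recovered therefore need not hold for these data.

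All 41 genes are named. Values in every library are given for the 15 called genes of smallest adjusted p and for core ATF4 genes, and at most 4 called genes per further list and comparison are named. The members and lists were chosen with earlier results of these data known. Alternatives covered pseudocount, filter, scaling, variance trend, lane, groups in the fit, the replicate block, times left out and each library left out. The difference between the first and second library was not shared between groups, so the replicate numbers were not used as pairs in the main fit.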

Additional observations from a re-analysis of the deposited data

Results flagged for a closer look

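The effect of 25 µg/ml ILT3.Fc on AARS differed between 24 h and 6 h by 0.21 on the log2(FPKM + 1) scale in a test of the difference itself (limma interaction, adjusted p = 0.0391 by Benjamini-Hochberg), with an effect of -0.045 at 6 h and 0.16 at 24 h. Both 25 µg/ml libraries lay above both untreated ones at 24 h, and the doses overlapped at 6 h. It was the only one of the 41 genes to pass that test, and it passed in 8 of the 30 alternatives run.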

How the results depend on the processing

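With each library left out in turn, 24 h against 6 h called 13 to 23 of the 41 genes (19 as reported). The same fits called 2187 to 4258 of all genes tested. For 25 µg/ml the calls among all genes ran from 613 to 2034 over all times and from 483 to 3071 at 24 h. They ran from 4 to 895 for 12.5 µg/ml and from 97 to 2411 for 12 h against 6 h. They ran from 8 to 796 in untreated cells and from 5 to 1162 for the interaction. The ranges of the 41 genes below stand beside these wide ranges of all genes. Leaving out single libraries gave 1 to 6 calls for 25 µg/ml over all times (1 as reported), 0 to 5 for 12.5 µg/ml (0), 0 to 2 between the doses (0), 0 at 6 h and 0 at 12 h (0 each), 0 to 14 at 24 h (5), 0 to 11 for 12 h against 6 h (1), 0 to 5 for 24 h against 6 h in untreated cells (2) and 0 to 3 for the interaction (1).

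For 25 µg/ml over all times, median centring gave 2 calls, quantile normalization 3, each lane alone 0, only the groups compared 3, and the fits without 24 h or without 12 h libraries 0. At 24 h, 25 µg/ml gave 3 calls with no filter, 2 in lane 4, 0 with only the groups compared and 3 without 12 h libraries. For 12.5 µg/ml quantile normalization gave 1, against 0.416% of all genes. Over all times 25 µg/ml called 9.64% of all genes after median centring, 9.92% after quantile normalization and 13.4% with only the groups compared. Without 24 h or without 12 h libraries it called 0.383% and 4.06%. In each lane alone over all times, and in lane 4 at 24 h, it called fewer of all genes than in the main fit. At 24 h it called 7.76% with no filter, 0.0999% with only the groups compared and 10.6% without 12 h libraries. The shares in untreated cells were 2.26% with no variance trend and 1.58% with the lane covariate. They were 0.0166% with only the groups compared and 0.508% without 12 h libraries. For 12 h against 6 h the lane covariate called 0.466% of all genes. Fewer of all genes than in the main fit were also called for untreated cells in lane 4 and for 12 h against 6 h in lane 5. For 24 h against 6 h lane 4 alone gave 6, and for 12 h against 6 h the lane covariate and lane 5 alone gave 0. In untreated cells no variance trend and the lane covariate gave 1 each, and lane 4, only the groups compared and no 12 h libraries gave 0. The interaction gave 0 under median centring (2.28% of all genes), quantile normalization (3.18%) and no variance trend (2.59%). It also gave 0 with only the groups compared (0.841%) and without 12 h libraries (0.0832%). Where few of all genes were called, a count of 0 says little about the 41.

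With the replicate number as a block, the calls were 3 for 25 µg/ml at 24 h (15.2% of all genes) and 1 in untreated cells (1.95%). There were 0 for the interaction (2.2%). The difference between the first and second library of a group correlated from one group to another at -0.183 to 0.128. The replicate number therefore carried no common difference across the groups, although at 6 h it coincides with the lane. The GC and length correction was chosen after seeing the data, and its shares are of the genes with a GC content and length. After it the calls were 7 for 25 µg/ml over all times (17.8%), 1 for 12.5 µg/ml (2.1%) and 1 at 6 h (0.979%). They were 9 at 24 h (19.3%), 5 for 12 h against 6 h (8.17%), 11 in untreated cells (9.26%) and 0 for the interaction (3.28%). Without both libraries that stand apart, also chosen after seeing the data, SHMT2 differed by 0.13 with 25 µg/ml over all times. That fit leaves 1 library in each of their groups, and its counts are not given. None of the called differences changed sign in the alternatives run. Where a setting used fewer libraries or genes, that is part of the change; otherwise the cause was not tested. With 2 libraries a group and FPKM without deposited counts, small differences of low genes such as SLC7A11 and STC2 were the least precise.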
